A study of Mus musculus with 30 samples.

Results

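The genes described here encode actins (Acta1, Actc1, Acta2 and Actbl2), tropomyosins (Tpm1, Tpm2 and Tpm3) and alpha-actinins (Actn2 and Actn3), and were followed across the muscles of mice that lack myotubularin. They were chosen by symbol from the deposited count table, where the 9 genes were found among 36103. The libraries came from male Mtm1-/y mice and WT littermates at 5 weeks of age, and covered gastrocnemius, diaphragm, heart and liver, all on a pure 129Pas background. Mtm1 is X-linked, and its product dephosphorylates phosphoinositides on endosomes. The muscles gave 23 of the 30 libraries, with 4 WT and 4 Mtm1-/y libraries each for the gastrocnemius and the heart and 4 WT and 3 Mtm1-/y libraries for the diaphragm. The knock-out is constitutive, not limited to muscle, and a library is named here by its genotype and replicate number.

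Actin monomers polymerize into the thin filament of the sarcomere, along which myosin heads pull. Tropomyosins are coiled-coil dimers that lie along the actin filament and, with troponin, open or close its myosin binding sites as calcium changes. Alpha-actinins crosslink the ends of thin filaments from neighbouring sarcomeres in the Z-disc. Acta1 encodes the main actin of adult skeletal muscle, Actc1 that of the heart and of developing skeletal muscle, and Acta2 that of smooth muscle. Tpm1, Tpm2 and Tpm3 encode alpha-, beta- and slow alpha-tropomyosin. Actn2 is expressed in cardiac and skeletal muscle, whereas Actn3 belongs to fast, glycolytic fibres.

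The libraries held 24873817 to 44289343 counts each. Levels are given in CPM, counts per 1000000 of a library size scaled by TMM over all libraries, with the SD between libraries. Within each muscle, log2 fold changes set Mtm1-/y over WT and carry their standard error (SE). They come from edgeR's quasi-likelihood test, with Benjamini-Hochberg adjustment over all genes tested in that muscle, and only genes with an adjusted p under 0.05 are described as having risen or fallen. Mtm1 itself lay at 16.1 to 27.0 CPM in the WT muscle libraries and at 3.49 to 5.90 CPM in the Mtm1-/y ones. Several libraries stood apart. Albumin (Alb), made by hepatocytes, ranged from 252 to 28581 CPM over the diaphragm libraries, WT heart 4 held 16044 CPM of the natriuretic peptide gene Nppa against 567 to 2086 CPM in the other WT hearts, and Mtm1-/y gastrocnemius 3 held keratin transcripts, described with Actbl2. In whole muscle, fewer cells of a type and less RNA per cell cannot be told apart.

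Reads of 50 bases had been counted where they aligned at a single place, so the resemblance between the paralogs bears on every value. Over the coding sequence, Acta1 was identical to Actc1 at 86.2% of 1134 bases, to Acta2 at 85.4% and to Actbl2 at 78.0%. The first 60 coding bases of 3 muscle actins show how those differences are spread. They are printed from the annotated transcripts, with capitals where a base differs from Acta1, and 9 bases differ in Actc1 and 17 in Acta2.
Acta1: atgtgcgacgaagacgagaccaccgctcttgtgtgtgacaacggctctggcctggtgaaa
Actc1: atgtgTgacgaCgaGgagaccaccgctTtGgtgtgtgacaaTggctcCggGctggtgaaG
Acta2: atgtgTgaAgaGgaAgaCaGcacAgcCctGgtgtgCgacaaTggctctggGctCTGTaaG
No stretch of 50 bases in the annotated Actc1 transcript recurred in a transcript of another gene, and the same held for Actbl2, Tpm1 and Tpm2. The share was 2.22% for Acta1, 0.352% for Acta2, 0.0675% for Actn2 and 0.0705% for Actn3. Tpm3 was the exception, with 62.4% of its stretches also present in Tpm3-rs7 or in pseudogenes, and its counts are uncertain for that reason. Tpm3-rs7 held 27 to 131 counts in a gastrocnemius or diaphragm library, against 3782 to 21479 for Tpm3. Annotated exons of other genes overlapped none of the 9.

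The 9 genes lie on 7 chromosomes of the mm10 genome. Acta1 is at chr8:123891769-123894751, Actc1 at chr2:114047282-114053548, Acta2 at chr19:34241090-34255590, and Actbl2 at chr13:111255013-111257749. Tpm1 is at chr9:67022590-67049406, Tpm2 at chr4:43514711-43523765, and Tpm3 at chr3:90072649-90100902. Actn2 is at chr13:12269426-12340760 and Actn3 at chr19:4861216-4877909. The 250 bases upstream of the start of Acta1 and of Actc1 are printed because both genes fell in the gastrocnemius and because these windows hold a CArG box, the binding motif of serum response factor (CC, then 6 bases of A or T, then GG), in capitals. Both are in the GRCm38.p6 build from RefSeq, on the minus strand, read 5′ to 3′ toward the gene, at chr8:123894776-123895025 for Acta1 and chr2:114052876-114053125 for Actc1.
Acta1: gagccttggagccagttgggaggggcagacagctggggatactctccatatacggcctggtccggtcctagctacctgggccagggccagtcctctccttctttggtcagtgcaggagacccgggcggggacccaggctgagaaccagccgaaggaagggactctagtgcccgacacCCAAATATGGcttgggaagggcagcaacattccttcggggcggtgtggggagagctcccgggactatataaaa
Actc1: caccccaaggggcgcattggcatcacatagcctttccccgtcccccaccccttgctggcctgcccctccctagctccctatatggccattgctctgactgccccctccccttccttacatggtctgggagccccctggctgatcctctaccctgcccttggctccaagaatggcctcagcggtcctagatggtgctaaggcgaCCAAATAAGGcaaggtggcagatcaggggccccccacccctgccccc
The starts are those of RefSeq, and that of Actc1 lies inside the longer span given above from GENCODE, downstream of where that span begins. The box began 73 bases before the RefSeq start of Acta1 and 47 bases before that of Actc1. A match on either strand was found in 1.47% of the 32851 mouse promoter windows of 250 bases. The windows of Acta2, Actbl2, Tpm1, Tpm2, Tpm3 and Actn2 held no exact match, and no window was searched for Actn3. Stretches that depart from the pattern by a single base were not counted, such as ccctatatgg in the windows of Acta2 and Actc1. These matches are a description of letters only, and do not show which windows bind the factor.

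The muscles differed in which paralog they used, and the WT libraries give the levels before any effect of genotype. Per kb of exon, which allows genes to be compared, WT gastrocnemius held 41924 CPM of Acta1, 4388 CPM of Actc1, 48.0 CPM of Acta2 and 0.0622 CPM of Actbl2. In the WT heart the order was Actc1 at 6410 CPM per kb, Acta2 at 241 and Acta1 at 214, with Actbl2 at 0. Acta1 therefore made up 90.4 ± 0.81% (SD, n = 4) of actin per kb in the gastrocnemius and 98.8 ± 0.45% in the diaphragm, and Actc1 made up 93.4 ± 1.32% in the heart. Exon lengths join all annotated isoforms, which lowers the values per kb of Tpm1 and Tpm3 against Tpm2.

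Actc1 did not follow the division into skeletal and cardiac muscle. WT gastrocnemius libraries held 7513, 7480, 6653 and 6750 CPM, WT hearts 10564, 12241, 10585 and 8094 CPM, and WT diaphragms 314, 203, 437 and 102 CPM. The gastrocnemius thus lay just below the heart and far above the diaphragm, with no overlap between any of the tissues. Heart and gastrocnemius did not pass the test (log2 difference 0.51 ± 0.34, edgeR adjusted p = 0.21). The diaphragm lay below the gastrocnemius by 4.79 ± 0.40 on the log2 scale (adjusted p = 5.2e-06). Among the cardiomyocyte markers, Nppa, Nppb and Nkx2-5 were at 0 in all 4 WT gastrocnemius libraries, and Tnni3 lay at 0.585 to 0.858 CPM there, against 2574 to 2871 CPM in WT hearts. Their summed level was 88.9 to 381 CPM in WT gastrocnemius, nearly all of it Myh6, and 23307 to 43213 CPM in WT hearts. The same heart against gastrocnemius difference, scaled by library totals alone, was 1.096 with an adjusted p of 0.010, while the median of all genes moved to 0.67 under that scaling.

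Between WT diaphragm and WT gastrocnemius, 5 of the 8 members tested differed, all lower in the diaphragm, where 54.8% of all genes differed (25.0% lower and 29.7% higher). Acta1 lay at 20450, 28332, 29704 and 18902 CPM in the diaphragm and at 55328 to 69626 CPM in the gastrocnemius. Actn3 was lower in the diaphragm by 3.95 ± 0.56 on the log2 scale and Tpm1 by 2.25 ± 0.22 (adjusted p = 1.3e-04 and 1.4e-05). The Acta2 difference was -0.58 ± 0.15 (edgeR adjusted p = 0.0063). It no longer passed with library totals alone in edgeR (-0.076, adjusted p = 0.67), where the median of all genes was 0.56. Tpm2, Tpm3 and Actn2 did not pass, with differences of 0.18 ± 0.48, -0.04 ± 0.25 and 0.15 ± 0.18. Against the gastrocnemius, the heart differed in 6 of 8 members, 5 of them lower, with 64.2% of genes differing (30.3% lower and 33.9% higher). Against the diaphragm it differed in 6 of 8, 4 of them lower, with 51.1% of genes differing (28.7% lower and 22.5% higher). Acta2 was the member higher in the heart than in both skeletal muscles, by 2.29 ± 0.16 over the gastrocnemius and 2.87 ± 0.16 over the diaphragm. Its WT heart libraries held 490 to 570 CPM and its WT skeletal muscle libraries 61.4 to 138 CPM, while the summed level of the smooth muscle markers Myh11, Tagln, Cnn1, Smtn and Mylk was 287 to 631 CPM in WT hearts and 234 to 316 CPM in WT skeletal muscle. Whether smooth muscle content has a part in it was not tested. Actn2 was the member with the flattest profile, at 1339 to 1945 CPM in WT gastrocnemius, 1384 to 2378 CPM in WT diaphragm and 1555 to 1910 CPM in WT heart, and none of its 3 differences passed. With library totals alone it was higher in the diaphragm and the heart than in the gastrocnemius by 0.66 and 0.69, beside medians of all genes of 0.56 and 0.67. Tpm1 did not pass between heart and diaphragm (0.39 ± 0.21, edgeR adjusted p = 0.14), although DESeq2 gave an adjusted p of 0.028, whereas Tpm2 and Tpm3 were low in the heart, at 16.2 to 106 CPM and 24.0 to 26.7 CPM in WT hearts.

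**Figure D1:**
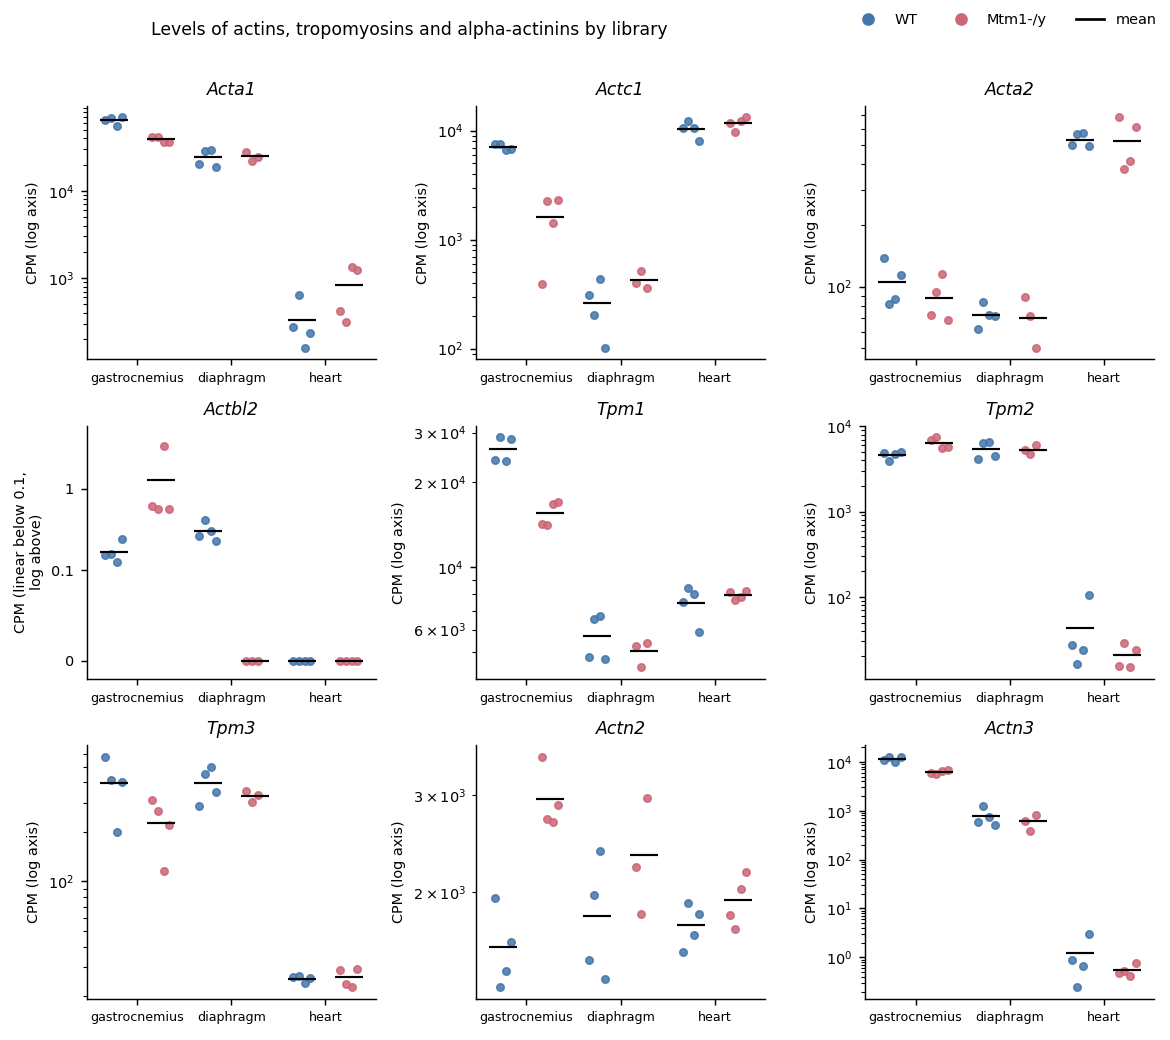
Level of each gene in every muscle library, in CPM on a log axis (Actbl2 on an axis that is linear below 0.1), with WT in blue, Mtm1-/y in red and a bar at the mean of the 3 or 4 libraries of each group. Acta1, Actc1, Tpm1 and Actn3 are lower and Tpm2, Actn2 and Actbl2 higher in every Mtm1-/y gastrocnemius library than in every WT one.

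Most of these genes differed by genotype in the gastrocnemius, in opposite directions within each family. Acta1, Actc1, Tpm1 and Actn3 fell, and Tpm2, Actn2 and Actbl2 rose, so 7 of the 9 members passed, where 29.0% of the 15456 genes tested did (14.9% lower and 14.1% higher). The median log2 fold change was -0.75 over the members and 0.02 over all genes. The libraries of the genotypes did not overlap for the same 7 members, where 15.6% of genes were higher and 15.0% lower without overlap. Actbl2 is among the 7, but cleared the filter on low counts only through its Mtm1-/y libraries, so it adds no support to these counts. With the additional demand of a log2 fold change beyond 1, only Actc1 and Actbl2 passed, and 6.63% of genes. At an unadjusted p under 0.05 the count was 8 members and 41.6% of genes. DESeq2 on the same libraries called 7 members and 26.7% of genes. A fit that took its spread from all 30 libraries called 4, since Acta1, Tpm2, Actn2 and Actn3 no longer passed and Tpm3 did. The share of all genes called by that fit is not given here, so its count has no background beside it. Scaling by library totals alone moved the median of all genes to 0.35 and the calls to 7647 higher and 647 lower, from 2173 and 2306, and the 7 members kept their directions. Markers of other cells moved in the same libraries. Of 6 fibroblast genes 4 rose, with summed levels of 2194 to 4848 CPM in the WT libraries and 3295 to 6720 CPM in Mtm1-/y, and of 6 white adipocyte genes 5 rose, from 20.5 to 95.7 CPM in the WT libraries and 81.3 to 174 CPM in Mtm1-/y. Of 6 pericyte genes 1 rose and 3 fell, with sums of 899 to 1047 CPM in the WT libraries and 691 to 763 CPM in Mtm1-/y. Their part in the results was not tested.

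Acta1 had the highest level per kb of the 9 genes in the gastrocnemius. WT gastrocnemius libraries held 64168, 68460, 55328 and 69626 CPM, and Mtm1-/y libraries 40977, 41291, 36579 and 36713 CPM. Every Mtm1-/y library lay below every WT one. The level fell by 0.75 ± 0.11 on the log2 scale, to 0.597 of WT (edgeR adjusted p = 0.0012).

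Actc1 showed the steepest fall. Its 4 WT libraries lay between 6653 and 7513 CPM, and the Mtm1-/y libraries at 395, 2272, 1419 and 2308 CPM. The groups were wide apart, and Mtm1-/y gastrocnemius 1 was lower than the others of its genotype. The log2 fold change was -2.17 ± 0.44 (edgeR adjusted p = 0.0052), and without that library it was -1.84, still past the threshold. Actc1 accounted for 8.42% to 10.2% of actin per kb in WT and for 0.907% to 5.63% in Mtm1-/y gastrocnemius. The summed level of the 4 actins was 62069 to 76490 CPM in the WT libraries and 38117 to 43657 CPM in Mtm1-/y. Actc1 is an actin of developing muscle, and 5 of 6 markers of developing or regenerating fibres moved the other way in the same libraries. Embryonic myosin (Myh3) rose by 3.81 ± 0.49, and the summed level of that list was 98.4 to 139 CPM in the WT libraries and 308 to 528 CPM in Mtm1-/y. Myod1, the sixth, had a log2 fold change of 0.99 ± 0.35 (adjusted p = 0.056).

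Acta2, the smooth muscle actin, gave WT values of 138, 82.3, 87.1 and 114 CPM and Mtm1-/y values of 72.1, 94.4, 116 and 68.1 CPM. The groups overlapped, and the difference did not pass (log2 fold change -0.28 ± 0.20, adjusted p = 0.32). It turned to 0.06 under library totals alone, a scaling that moved the median of all genes to 0.35. Of the 5 smooth muscle markers, Myh11 and Mylk fell, and the others did not pass. Their summed level was 235 to 316 CPM in the WT libraries and 236 to 269 CPM in Mtm1-/y.

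Actbl2 encodes a beta-actin-like protein and was close to the limit of detection. Its raw counts were 5, 4, 4 and 7 in WT gastrocnemius and 23, 17, 111 and 19 in Mtm1-/y, which correspond to 0.128 to 0.241 CPM and to 0.608, 0.561, 3.39 and 0.566 CPM. All 4 Mtm1-/y libraries exceeded the WT ones, and replicate 3 was far above the rest. The log2 fold change was 2.87 ± 0.73 (edgeR adjusted p = 0.015), and 1.74 (adjusted p = 0.0036) without Mtm1-/y gastrocnemius 3. No WT library reached the count minimum of 10, so the gene was tested only because it was high in Mtm1-/y. That library also held 121 CPM of Krt5 and 42.3 CPM of Krt14, keratins of the basal epidermis, against at most 0.556 CPM of either in the other 7 gastrocnemius libraries. The sum of 6 keratinocyte genes, a list chosen after the values were seen, was 255 CPM in it and 2.11 to 4.20 CPM in the other 7. The part of other cells in the Actbl2 level of that library was not tested.

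**Figure D2:**
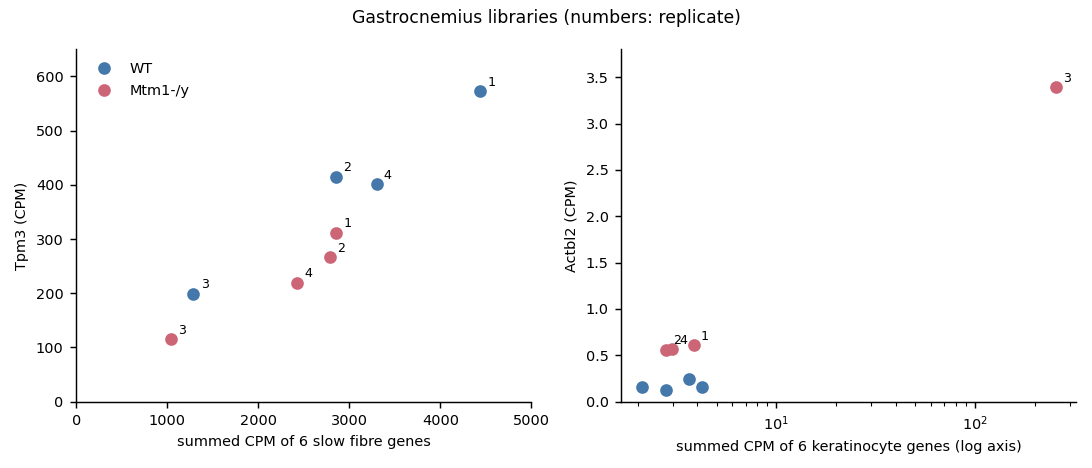
Gastrocnemius libraries, WT in blue and Mtm1-/y in red, numbered by replicate. Left, Tpm3 in CPM against the summed CPM of 6 slow fibre genes, where replicate 3 of both genotypes is lowest on both axes. Right, Actbl2 in CPM against the summed CPM of 6 keratinocyte genes on a log axis, where Mtm1-/y replicate 3 stands at 3.39 and 255 CPM.

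Among the tropomyosins, Tpm1 fell while Tpm2 rose. WT gastrocnemius libraries held 24010, 28921, 23819 and 28447 CPM of Tpm1, and Mtm1-/y libraries 14261, 14106, 16720 and 16952 CPM. The ranges were clearly separate. Tpm1 fell by 0.78 ± 0.11 on the log2 scale, to 0.582 of WT (edgeR adjusted p = 0.0011). For Tpm2, the WT values were 4855, 3874, 4740 and 4982 CPM and the Mtm1-/y values 6946, 7486, 5515 and 5730 CPM. The lowest Mtm1-/y library exceeded the highest WT library by a small margin. The rise was 0.46 ± 0.13 (adjusted p = 0.022), and it no longer passed without WT gastrocnemius 2, Mtm1-/y gastrocnemius 1 or Mtm1-/y gastrocnemius 2 (adjusted p = 0.061, 0.054 and 0.051). Tpm2 made up 22.7% to 30.5% of the 3 tropomyosins per kb in WT and 42.2% to 53.7% in Mtm1-/y, against 66.0 ± 1.27% in WT diaphragm. In WT hearts it was 3.84% in replicate 4 and 0.424% to 0.787% in the others. The sum of the 3 was 28758 to 33831 CPM in the WT libraries and 21518 to 22901 CPM in Mtm1-/y gastrocnemius.

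Tpm3, the slow fibre tropomyosin, did not pass. WT libraries held 573, 415, 199 and 401 CPM and Mtm1-/y libraries 311, 267, 116 and 219 CPM, so the ranges overlapped. The log2 fold change was -0.81 ± 0.33 (adjusted p = 0.094), and it passed without WT gastrocnemius 3 (-1.04, adjusted p = 0.031). Replicate 3 was lowest in both genotypes, and so was the summed level of Myh7, Tnni1, Tnnt1, Tnnc1, Myl2 and Myl3, markers of slow fibres, with 1287 CPM for WT 3 and 1044 CPM for Mtm1-/y 3 against at most 4440 and 2858 CPM in the others. Of these 6 markers, Myl3 fell and 5 did not pass. The share of slow fibres in the piece of muscle taken was not measured, and its part in the Tpm3 values was not tested.

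The alpha-actinins also moved in opposite directions. Actn2 lay at 1945, 1339, 1434 and 1618 CPM in the WT libraries and at 3528, 2715, 2680 and 2876 CPM in Mtm1-/y gastrocnemius. No WT library reached the lowest Mtm1-/y library. The rise was 0.88 ± 0.13 on the log2 scale, or 1.84-fold (edgeR adjusted p = 0.0011). Actn3 lay at 11009, 12531, 10141 and 12642 CPM in the WT libraries and at 5934, 5539, 6440 and 6932 CPM in Mtm1-/y. All Mtm1-/y libraries lay well below the WT range, with a log2 fold change of -0.92 ± 0.11 (adjusted p = 4.3e-04). Per kb, Actn2 made up 7.55% to 11.9% of the pair in WT and 24.1% to 31.2% in Mtm1-/y gastrocnemius. It made up 54.8% to 70.8% in WT diaphragm, 73.1% to 78.7% in Mtm1-/y diaphragm and 99.78% or more in every heart library. In the diaphragm the levels of both genes overlapped between the genotypes, and neither passed (edgeR adjusted p = 0.71 for Actn2 and 0.84 for Actn3). The shares themselves were not tested. Fast fibre genes split in the same libraries. Myh4, the myosin of the fastest fibres, fell by 1.00 ± 0.15, and Tnnt3, Tnni2 and Tnnc2 also fell, whereas Myh1 and Myh2 rose by 1.08 ± 0.16 and 0.93 ± 0.17. The summed level of these 6 was 111043 to 133265 CPM in the WT libraries and 72315 to 83820 CPM in Mtm1-/y.

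**Figure D3:**
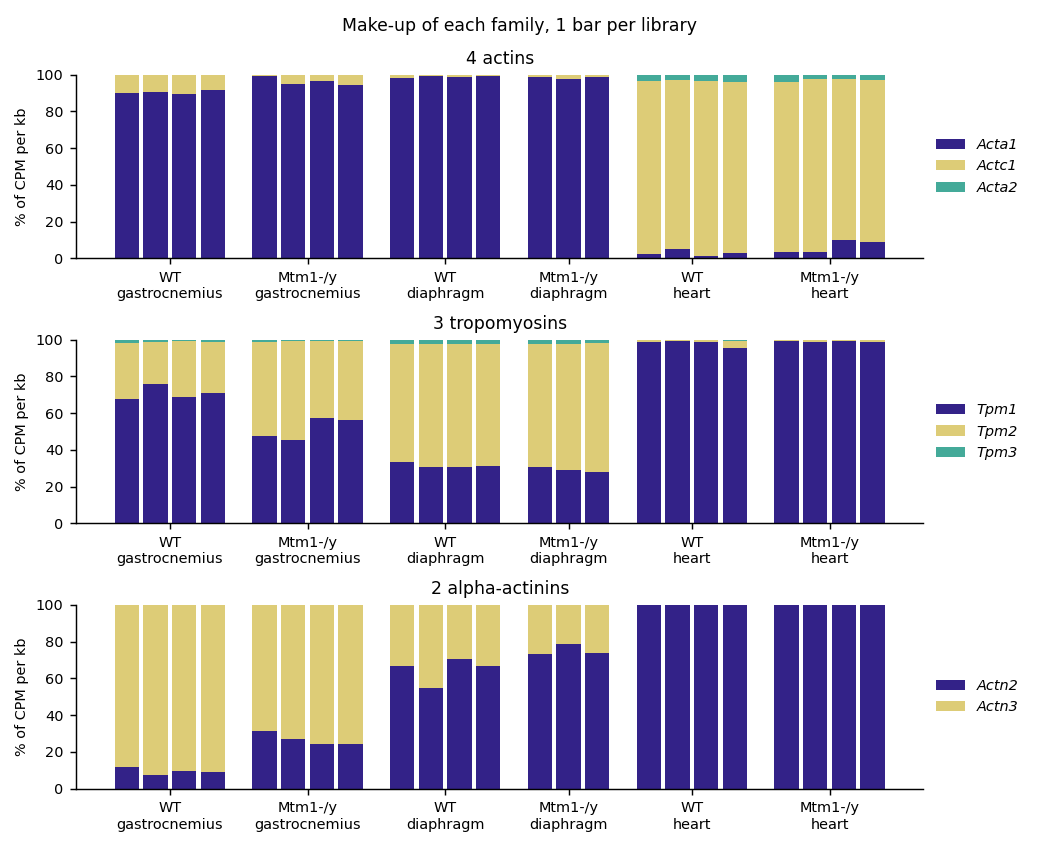
Make-up of the actins, the tropomyosins and the alpha-actinins in every muscle library, as the percentage of CPM per kb of exon held by each gene (1 bar per library, Actbl2 too small to show). In the gastrocnemius, Actc1 shrinks while Tpm2 and Actn2 take larger shares in Mtm1-/y, and the heart bars are mostly Actc1 (87.9% or more), Tpm1 and Actn2.

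In the diaphragm, none of the 9 members passed, where 2 of 16796 genes (0.0119%) did, 1 of them Mtm1. At an unadjusted p under 0.05 the member was Actbl2 alone, with 10.8% of all genes, and DESeq2 called Actbl2 and 2.37% of genes. The common coefficient of variation between libraries was 0.394 in the diaphragm, against 0.171 in the gastrocnemius. Acta1 lay at 18902 to 29704 CPM in the WT libraries and at 28059, 22124 and 24147 CPM in Mtm1-/y, with a log2 fold change of 0.04 ± 0.33. Actc1 lay at 314, 203, 437 and 102 CPM in the WT libraries and at 405, 519 and 363 CPM in Mtm1-/y. These ranges overlapped, and the log2 fold change was 0.71 ± 0.46 (edgeR adjusted p = 0.67). Actn2 and Actn3 had log2 fold changes of 0.38 ± 0.27 and -0.34 ± 0.38, and Tpm1, Tpm2 and Tpm3 of -0.17 ± 0.24, -0.01 ± 0.26 and -0.25 ± 0.21. Acta2 had one of -0.03 ± 0.20. The Tpm2 share of tropomyosin was 64.2% to 66.9% in WT and 67.3% to 69.9% in Mtm1-/y. The summed level of 6 hepatocyte genes ranged from 348 to 29536 CPM over the WT and from 615 to 36986 CPM over the Mtm1-/y diaphragms, and that of 6 fibroblast genes from 1604 to 3225 and from 3466 to 7657 CPM. Their part in the spread was not tested.

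Actbl2 was the member whose diaphragm libraries separated by genotype, as 5.26% of genes did with lower and 4.75% with higher Mtm1-/y libraries. WT libraries held 10, 20, 11 and 9 counts, and all 3 Mtm1-/y libraries held 0. Actbl2 therefore cleared the filter on low counts only through the WT libraries, where it was high. Against a floor of 3 counts over the Mtm1-/y group, the level was at least 13.2-fold lower than in WT. The edgeR test gave an adjusted p of 0.26, DESeq2 0.0011 and limma voom with sample weights 0.029. With so few reads, absence cannot be told from a level under that floor.

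In the heart, none of the 8 members tested passed, where 1 of 15238 genes (0.00656%) did, which was Mtm1. Acta1 was the member with an unadjusted p under 0.05, as were 8.88% of genes, and DESeq2 called none of the 8 and 0.453% of genes. For no member did the libraries of the genotypes separate, where 1.98% of genes were higher and 2.00% lower without overlap. Actbl2 had no count in any of the 8 hearts. The summed level of the hepatocyte genes was 1.55 to 29.3 CPM in WT and 33.4 to 108 CPM in Mtm1-/y hearts, and that of the white adipocyte genes 29.9 to 111 CPM and 4.70 to 12.0 CPM, and no gene of either list passed. Acta1, a minor actin of the adult heart, lay at 273, 649, 160 and 233 CPM in the WT libraries and at 425, 315, 1327 and 1244 CPM in Mtm1-/y. Mtm1-/y hearts 3 and 4 were above every WT library and Mtm1-/y hearts 1 and 2 were not. The log2 fold change was 1.32 ± 0.56 (edgeR adjusted p = 0.55). Actc1 lay at 8094 to 12241 CPM in the WT libraries and at 9782 to 13282 CPM in Mtm1-/y hearts (0.18 ± 0.15). Tpm1, Tpm3, Actn2 and Acta2 had log2 fold changes of 0.08 ± 0.13, 0.02 ± 0.10, 0.14 ± 0.11 and -0.03 ± 0.19. Tpm2 and Actn3 had fitted log2 fold changes of -1.07 ± 0.56 and -1.14 ± 0.66, and both values rested on WT heart 4. It held 106 CPM of Tpm2 against 16.2 to 26.9 CPM in the other WT hearts, and 3.01 CPM of Actn3 against 0.245 to 0.903 CPM. Without it the log2 fold changes were -0.11 and -0.13. The same library held 172 CPM of Tagln and 46.5 CPM of Cnn1, both smooth muscle genes, against at most 51.8 and 7.94 CPM in the other WT hearts. Acta2, the smooth muscle actin, was not raised in it, at 490 CPM against 496 to 570 CPM. Its values of Myh11, Smtn and Mylk are not given here, and the part of smooth muscle was not tested.

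**Figure D4:**
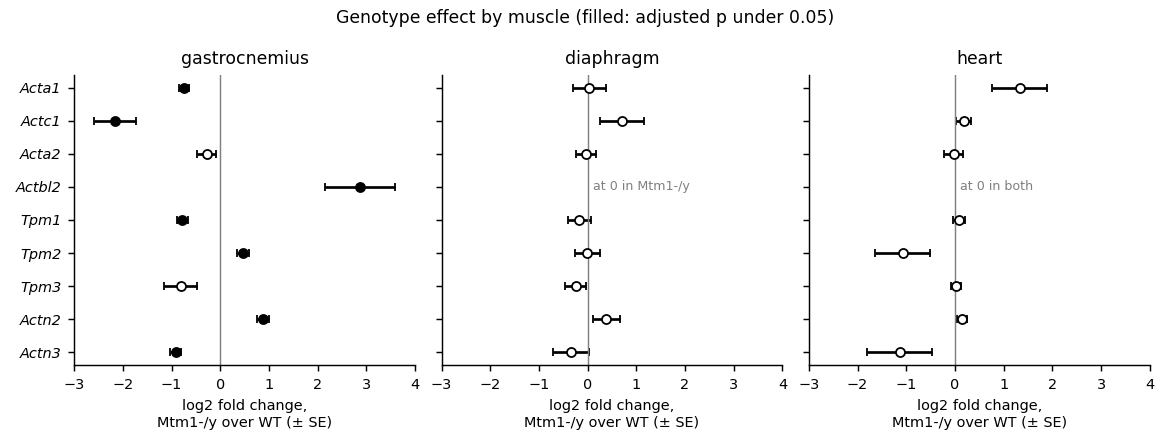
Log2 fold change of Mtm1-/y over WT for each gene in the gastrocnemius, diaphragm and heart, with bars of 1 SE and filled points at an adjusted p under 0.05. Actbl2 has no point in the diaphragm and heart, where words mark the groups at 0. The 7 filled points are all in the gastrocnemius, 4 to the left of 0 and 3 to the right.

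Because a change that passes in one muscle and not in another is not thereby shown to differ, the difference between the effects was tested in joint fits. Between heart and gastrocnemius, 4 of the 9 members differed, where 19.8% of 16627 genes did (9.94% higher and 9.89% lower in the heart). Effects in the heart were higher by 2.09 ± 0.62 for Acta1 (adjusted p = 0.029), 2.37 ± 0.50 for Actc1 (0.0052) and 0.88 ± 0.18 for Tpm1 (0.0041), and lower by 0.72 ± 0.18 for Actn2 (0.012). The Acta1 difference no longer passed when WT gastrocnemius 2, WT heart 1, WT heart 4, Mtm1-/y heart 3 or Mtm1-/y heart 4 was left out, with adjusted p between 0.051 and 0.067. Actbl2, at 0 in all 8 hearts, could not be compared. In the same test all 6 hepatocyte genes were higher (median 4.40), all 6 white adipocyte genes lower (median -4.25) and 3 of 6 fibroblast genes lower, and their part in the members' differences was not tested. For Actn3 the heart minus gastrocnemius difference was -0.20 ± 0.63, and it turned to 0.81 without WT heart 4. Between heart and diaphragm, none of the 8 members tested passed, where 0.00573% of genes did. Between gastrocnemius and diaphragm, only Actbl2 passed in edgeR (adjusted p = 0.032), where 0.280% of genes did. DESeq2 also called Acta1 and Actc1 (adjusted p = 0.021 and 0.0018), and its share of all genes is not given here. The Actbl2 call was lost in 10 of the 15 fits that left out 1 library, with adjusted p of 0.055 to 0.078. Actbl2 cleared the filter on low counts only through Mtm1-/y gastrocnemius and WT diaphragm, the groups where it was high. The Actc1 difference there was -2.87 ± 0.69 in edgeR, with an adjusted p of 0.12. These tests share libraries, since each muscle enters a pair of them.

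The other proteins of the thin filament and the Z-disc were looked at as lists. Of 6 further actins, tropomyosins and actinins, which serve the cytoskeleton or smooth muscle, Actg1 fell by 0.66 ± 0.16 in the gastrocnemius and 5 did not pass, among them Actb, Tpm4, Actn1 and Actn4. Actg1 has many near copies in the genome, so its count is uncertain. Of 21 genes that set the length and the ends of thin filaments, 6 fell, 3 rose and 12 did not pass in the gastrocnemius, with a median of 0.01 against 0.02 over all genes, of which 14.9% fell and 14.1% rose. Capza2, a subunit of the capping protein at the Z-disc end, fell by 0.68 ± 0.09 (edgeR adjusted p = 5.4e-04). Tmod4, a tropomodulin that caps the free end, fell by 0.51 ± 0.06, and nebulin (Neb), which spans the filament, by 0.45 ± 0.08. Lmod2, Klhl40 and Klhl41 rose. Of 19 partners of alpha-actinin in the Z-disc, 8 fell, 3 rose and 8 did not pass, with a median of -0.22, beside the same 29.0% of all genes that passed. Nexn, an actin-binding Z-disc protein, fell by 0.70 ± 0.09, the protease Capn3 by 0.65 ± 0.09, and Myoz1, the calsarcin of fast fibres, by 0.75 ± 0.11. Csrp3, Flnc and Pdlim1 rose.

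Serum response factor (Srf) and genes that act with it (Mrtfa, Mrtfb, Myocd and Abra) were measured as well, since they bind the CArG box or regulate its binding factor. Srf fell by 0.46 ± 0.11 in the gastrocnemius, from a WT mean of 66.6 to 48.9 CPM (edgeR adjusted p = 0.014). Mrtfa, a cofactor held in the cytoplasm by free actin, fell by 0.71 ± 0.11. Abra, an activator of this pathway in striated muscle, rose by 0.72 ± 0.15. Mrtfb and Myocd did not pass. In the diaphragm and the heart, no tested gene of these 4 lists passed.

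**Figure D5:**
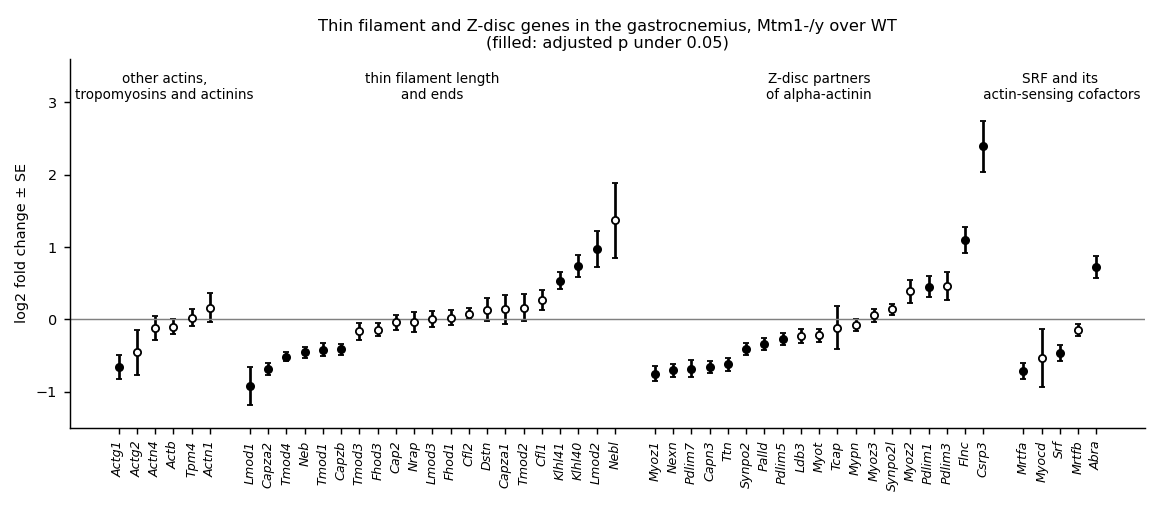
Log2 fold change of Mtm1-/y over WT in the gastrocnemius for the genes of 4 lists, ordered by value within each list, with bars of 1 SE and filled points at an adjusted p under 0.05. Both directions occur in the thin filament and Z-disc lists, from -0.92 for Lmod1 to 2.39 for Csrp3.

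The genes whose profiles lay closest to each member over the 23 muscle libraries give a further description, without a test, since the libraries share tissues and genotypes. Acta1 lay closest to Myot, a Z-disc gene (Pearson r of log2 CPM 0.99), Actc1 to Mdga1 (0.96), Acta2 to Myocd (0.98) and Actbl2 to Gjc3 (0.83). Tpm1 lay closest to the capping protein gene Capzb (0.98), Tpm2 to Zfhx4 (0.99) and Tpm3 to the slow troponin gene Tnnt1 (0.97). Actn3 lay closest to Mrln (0.99), which encodes a regulator of the calcium pump, and Actn2, the flattest member, to Pde10a (0.86). With the mean of each muscle and genotype taken off, the nearest genes were Gm7497 for Acta1 (0.91), Morc2a for Actc1 (0.77), Mis18a for Acta2 (0.72), Tpi1 for Tpm1 (0.93), Atp2a1 for Tpm2 (0.94), Atp2a2 for Tpm3 (0.91) and Smarcd3 for Actn3 (0.89). Atp2a2 encodes the calcium pump of slow fibres, and Atp2a1 that of fast fibres. For Actbl2 the nearest was Atg9b (0.92), at 19.7 CPM in the library with keratin RNA, Mtm1-/y gastrocnemius 3, and at most 0.566 CPM in the other gastrocnemius libraries. Between members on that scale, Tpm2 and Actn3 had an r of 0.85, and Tpm1 and Tpm2 an r of -0.37. WT heart 4 stood apart for both Tpm2 (106 against at most 26.9 CPM in the other WT hearts) and Actn3 (3.01 against at most 0.903 CPM). The part of that library in their r, and in that of Tpm2 with Atp2a1, was not tested.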

How the data were processed

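Poly(A) RNA was sequenced by the authors as single reads of 50 bases from stranded libraries. After trimming with cutadapt 1.10, STAR 2.5.3a placed reads on mm10, and those with a unique, unambiguous position were counted per Ensembl gene with HTSeq 0.6.1p1. The deposited values are raw counts per gene and library. All 36103 gene IDs matched the GENCODE M21 annotation, which gave coordinates and lengths.

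The genes and lists were chosen with earlier results of these data known. Genotypes were compared within each muscle in edgeR 4.0.16 under R 4.3.3 (filterByExpr at a count minimum of 10, TMM, quasi-likelihood F test, Benjamini-Hochberg adjustment, threshold 0.05), and the SE is the fold change over the root of F. Differences between muscles used joint fits. DESeq2 1.42.0, limma 3.58.1 (voom), other scalings, no filter, a replicate block and leaving out each library were the alternatives. Log2 CPM used a prior count of 2.

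Named are the 9 members, per list up to 3 of the genes that passed in the gastrocnemius, by smallest p, the nearest gene by correlation, and markers beside the result they accompany. The nearest gene to Actn2 after taking off group means is not reported here. Lmod1, Lmod2, Klhl40, Klhl41, Csrp3, Flnc, Pdlim1, Krt5 and Krt14 were named after their values were seen. On simulated counts, a log2 change of 1 was recovered for 99% of changed genes in the gastrocnemius (15826 genes tested) and 79% in the heart (15390). It was 7% in the diaphragm (16835) and 46% for the difference between heart and gastrocnemius (16469). Each simulation was a single draw with 1 common spread for all genes, that of the heart for the difference, and 200 changed genes above a minimum level. The wider spread of single genes was left out, so these values do not give the power for any member. The study's methods count the samples of a group as mice, and which tissues share a mouse is not given in the sources used here. The floor of 3 counts covers counting error only.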

Additional observations from a re-analysis of the deposited data

Results flagged for a closer look

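A few values were marked because they stood apart from their group or because an effect differed between muscles. By a gap test at the 95% level, run on 52 groups of 4 libraries, 5 libraries stood out, and chance alone marks about 1 group in 20. Actbl2 was 3.39 CPM in Mtm1-/y gastrocnemius 3 against 0.561 to 0.608 CPM in the other 3. Tpm2 was 106 CPM in WT heart 4 against 16.2 to 26.9 CPM. In the Mtm1-/y livers, Acta2 was 47.7 CPM in replicate 3 against 1.00 to 3.805 CPM, Actbl2 was 0.0850 CPM in replicate 3 against 0, and Actn2 was 5.11 CPM in replicate 2 against 0.310 to 0.935 CPM.

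Effects differed by the test of the difference itself for Acta1 (2.09), Actc1 (2.37), Tpm1 (0.88) and Actn2 (-0.72) between heart and gastrocnemius, and for Actbl2 between gastrocnemius and diaphragm. The fitted Actbl2 difference of 9.35 depends on a group with 0 counts and is no measure of size, and its call was lost in 10 of the 15 fits that left out 1 library.

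The livers, which entered no comparison, held traces of striated muscle transcripts. Actc1 was 1.02 CPM or more in every Mtm1-/y liver and 0.827 to 0.891 CPM in the WT livers. Actn2 was 0.310 CPM or more in every Mtm1-/y liver and 0.138 to 0.223 CPM in the WT ones. The Actn2 counts were few, 7, 4 and 3 in WT and 7, 112, 22 and 24 in Mtm1-/y livers. Those of Actc1 overlapped, 26, 22 and 19 in WT and 23, 69, 38 and 41 in Mtm1-/y livers. Its separation in CPM therefore depends on the scaling by library size. Acta1 (6.23 to 8.65 CPM in WT and 2.38 to 47.1 CPM in Mtm1-/y) and Actn3 (1.05 to 1.52 and 0.223 to 2.92 CPM) overlapped. The share of all genes that separated in the liver is not given here.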

How the results depend on the processing

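Counts of members that passed moved by over 1.5 times in 3 comparisons. In the gastrocnemius the 7 became 4 with the spread of all 30 libraries (adjusted p of 0.43 for Acta1, 0.61 for Tpm2, 0.18 for Actn2 and 0.28 for Actn3, with Tpm3 gained at 0.021), 2 with a fold threshold, and 6 to 8 without single libraries. In the diaphragm the 0 became 1, Actbl2, with DESeq2, voom and all 30 libraries, and 0 to 1 without single libraries, and it passed without Mtm1-/y diaphragm 2 (0.048). It could not be tested without WT diaphragm 1, 2 or 3, where it fell below the filter. Between gastrocnemius and diaphragm the 1 became 3 with DESeq2 and 0 to 1 without single libraries, the Actbl2 difference having an adjusted p of 0.055 to 0.078 in the 10 fits that lost it. Without single libraries the counts were 0 in the heart, 3 to 5 between heart and gastrocnemius, and 17 to 18 over the WT comparisons, where the main fit gave 17. The shares of all genes called with voom, with all 30 libraries or without single libraries are not given here. Those counts therefore have no background beside them. Tpm2 in the gastrocnemius also missed the threshold with no filter (0.066).

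Same-numbered libraries did not deviate together (correlations of -0.05 to 0.12 in the gastrocnemius, -0.55 to 0.33 in the diaphragm and -0.51 to 0.28 in the heart), so the numbers were not taken as a pairing. With a replicate block the counts stayed at 7 in the gastrocnemius, 0 in the diaphragm and heart and 17 over the WT comparisons, with Tpm2 lost (0.45, adjusted p = 0.062) and Tpm3 gained (-0.81, adjusted p = 0.0010). The share of all genes called with that block is not given here either.

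Directions turned only for values that had not passed. With library totals alone, Acta2 became 0.056 in the gastrocnemius and 0.015 in the diaphragm, Tpm2 0.046 in the diaphragm, Tpm3 -0.043 in the heart and 0.47 between WT diaphragm and gastrocnemius, and Actn2 0.032 between WT heart and diaphragm. In the diaphragm Acta2 was 0.058 with voom, and Tpm2 was 0.0087 with DESeq2 size factors, 0.0099 with no filter, 0.0089 with DESeq2, 0.077 with voom and 0.12 with the replicate block, under which Tpm3 between WT diaphragm and gastrocnemius was 0.0087. Without single libraries the log2 ranges crossing 0 were -0.067 to 0.17 for Acta1, -0.22 to 0.16 for Acta2 and -0.12 to 0.13 for Tpm2 in the diaphragm, and -0.19 to 0.10 for Acta2, -0.011 to 0.14 for Tpm1 and -0.039 to 0.082 for Tpm3 in the heart. They were -0.55 to 0.81 for Actn3 between heart and gastrocnemius, and -0.16 to 0.20 for Acta2, -0.39 to 0.0047 for Actn2 and -1.13 to 0.23 for Actn3 between the effects in heart and diaphragm. Between WT muscles they were -0.068 to 0.26 for Actn2 and -0.27 to 0.17 for Tpm3 (diaphragm and gastrocnemius) and -0.16 to 0.15 for Actn2 (heart and diaphragm). Of the single values recomputed, 1159 kept direction and call, 25 lost and 17 gained the call, and 43 turned. The causes were not tested. Depth limits Actbl2, with at most 20 counts in a library outside the Mtm1-/y gastrocnemius.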
